A study of Arabidopsis thaliana with 2 samples.

Results

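CC-type glutaredoxins are small redox proteins of land plants, named for the pair of cysteines in their active site. The data described here are the signals of 10 genes of this class in shoots of an Arabidopsis thaliana line that carries a GFP-TIE1 transgene and in wild type. The members were chosen by locus: the 5 genes of the tandem cluster AT4G15660, AT4G15670, AT4G15680, AT4G15690 and AT4G15700 on chromosome 4, and 5 relatives dispersed over the genome, AT3G62950, AT2G47880, GRX480 (AT1G28480), AT5G18600 and AT1G03020. Of the 10, 9 had a named probe set, out of 13286 genes with a named probe set on the array, and AT4G15670 had none. They were picked with the values of these arrays known, so all of their values stand as a description.

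The study compared aerial parts of seedlings of GFP-TIE1-15 with those of wild-type Columbia-0, both 14 days old and grown on Murashige and Skoog medium in long days, with 1 Affymetrix array for each genotype. GFP-TIE1-15 is 1 transgenic line with a transgene for TIE1, a repressor of TCP transcription factors in leaf development, fused to the green fluorescent protein. The promoter of the transgene and the number of seedlings in each RNA sample are not given in the sources used here. TIE1 (AT4G28840) had no named probe set, so the transgene itself was not checked.

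Glutaredoxins use glutathione to reduce disulfides in other proteins. The CC-type members are best known as partners of TGA transcription factors, through which they change the transcription of target genes, and many of them can also bind the corepressor TOPLESS. In Arabidopsis the family is known for work in petal and anther development, in the crosstalk of salicylate and jasmonate, and in the response of roots and shoots to nitrogen supply. The cluster genes on chromosome 4 are known as nitrate-induced genes that limit the growth of the primary root.

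Signals are the deposited intensity values of the probe sets, already scaled to the same trimmed mean of 500.05 on both arrays. The median signal was 173.05 on the GFP-TIE1-15 array and 169.3 on the wild-type array. The log2 ratio is that of GFP-TIE1-15 over wild type after a pseudocount of 50.0 was added to each signal. This shrinks the ratio of a dim gene compared with that of its signals before the pseudocount. The term measured is used of a probe set whose brighter array reached a signal of 200.02, and a measured one counted as higher or lower if it was at least 2-fold apart on this scale. With 1 array for each genotype there is no test, no error and no replicate check, and a difference between the plants sampled cannot be told apart from one due to the genotype. Fewer cells that express a gene and less RNA per cell also cannot be told apart in whole shoots. The photosynthesis genes RCA and LHCB4.1, markers of green tissue, had signals of 16627.9 and 20353.2 in GFP-TIE1-15, against 21195.4 and 25524.7 in wild type. Of 3 root markers, EXPA7 and EXPA18 lay below the minimum on both arrays, and PYK10 had 5954.0 in GFP-TIE1-15 and 6745.9 in wild type.

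The cluster and most dispersed members had ratios of opposite sign, a contrast among genes picked with these values known. All 4 cluster genes with a named probe set had a higher signal in GFP-TIE1-15, while 4 of the 5 dispersed members had a lower one. The ratios of AT3G62950, AT1G03020 and AT5G18600 lay within the spread of the 500 probe sets nearest in signal. Of 8 CC-type genes outside the members with a named probe set, 3 had a ratio above 0 and 5 below. The median log2 ratio was 0.89 over the 4 cluster genes and -0.35 over the 5 dispersed members, beside a median of -0.001 over all 22746 probe sets other than controls. On the whole array 49.5% of these probe sets had a ratio above 0 and 50.1% a ratio below 0.

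**Figure D1:**
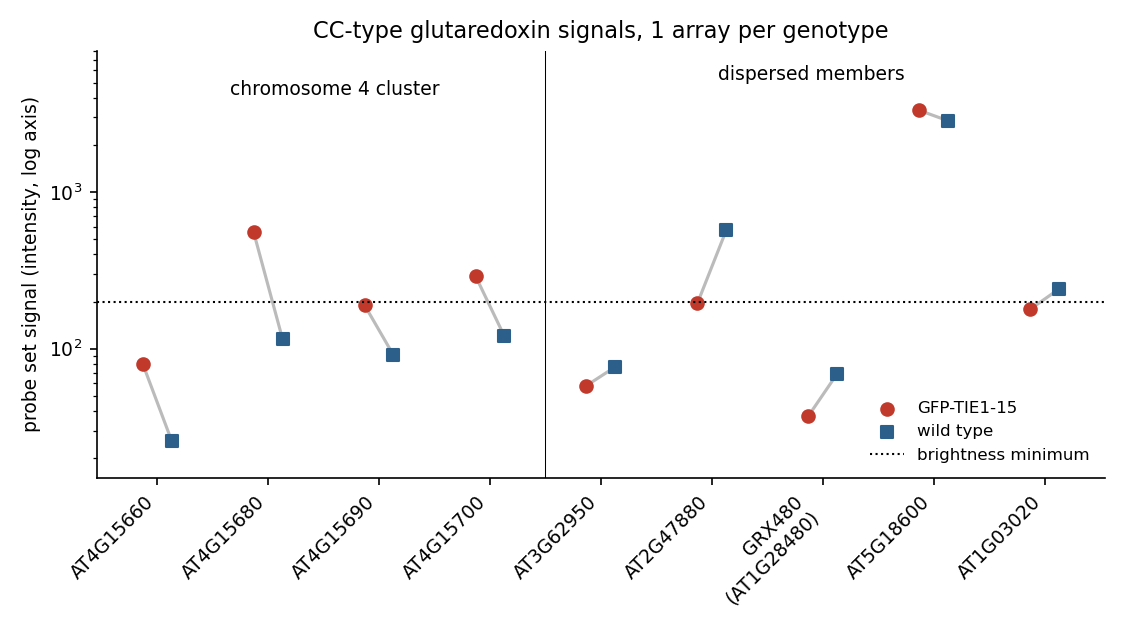
Probe set signal (intensity, log axis) of the 9 CC-type glutaredoxin genes with a named probe set, GFP-TIE1-15 as circles and wild type as squares, 1 array each, with the brightness minimum of 200.02 as a dotted line. The circle lies above the square in all 4 cluster genes and in AT5G18600 only among the 5 dispersed members. Signals of different genes come from different probes and are not comparable with each other.

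Of the 9 members, 5 were measured. Among these, AT4G15680 and AT4G15700 were higher in GFP-TIE1-15 by at least 2-fold, AT2G47880 was at least 2-fold lower, and AT5G18600 and AT1G03020 passed the size rule in neither direction. Of all 11308 measured probe sets, 1.20% passed the rule upward and 2.39% downward, 3.59% in all. The members were chosen with these ratios known, so nothing is read from their count. AT4G15680 and AT4G15700 reached the minimum only in GFP-TIE1-15, and AT2G47880 and AT1G03020 only in wild type. These 4 genes thus counted as measured only through the array on which they were brighter, so the sign of their ratios is no separate result.

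AT4G15680 had a signal of 552.4 in GFP-TIE1-15 and 115.1 in wild type, a ratio of signals of 4.80 before the pseudocount. Its log2 ratio of 1.87 was the 13th highest among the 11308 measured probe sets, and none of the 500 probe sets nearest to it in mean signal had a higher one. AT4G15700, the last gene of the cluster, had 291.0 in GFP-TIE1-15 and 120.1 in wild type, a log2 ratio of 1.00. This lies just inside the 2-fold rule, at rank 135 of the measured probe sets, and 8 of the 500 nearest in signal were higher. Its ratio was 0.99 after quantile normalization and 0.98 after division by the array median, both just outside the rule, and 0.94 after removal of a loess trend.

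The other cluster genes with a probe set stayed below the brightness minimum on both arrays. AT4G15690 had a signal of 189.4 in GFP-TIE1-15 and 90.9 in wild type, a log2 ratio of 0.76. AT4G15660 had 79.8 in GFP-TIE1-15 and 25.8 in wild type, a log2 ratio of 0.78. For each of them, 14 of the 500 probe sets nearest in mean signal had a higher ratio. At such dim signals the ratio depends on the pseudocount: a pseudocount of 1 put AT4G15660 at 1.59 and AT4G15690 at 1.05, and a pseudocount of 25% of the trimmed mean put them at 0.44 and 0.54.

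The cluster genes are tandem copies that resemble each other in sequence. Probe sequences were not used here, so how far the probe set of one cluster gene also detects its neighbours, AT4G15670 among them, was not tested. The 4 ratios may thus not be separate measurements. They differed in size, from 0.76 in AT4G15690 to 1.87 in AT4G15680.

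**Figure D2:**
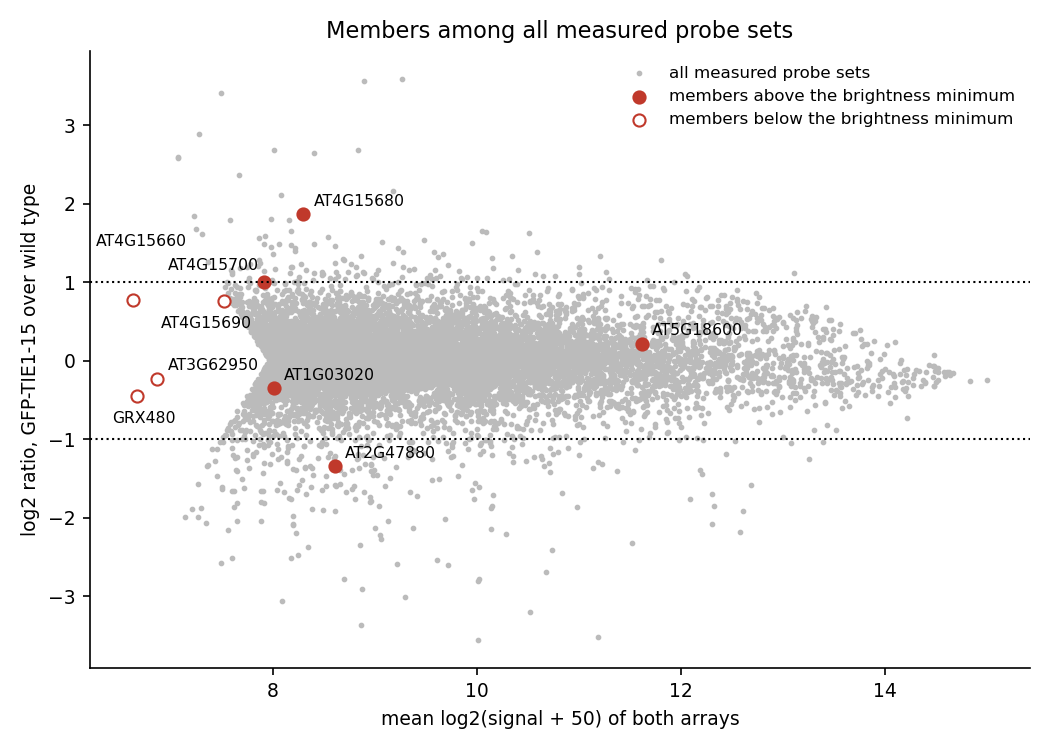
Log2 ratio between GFP-TIE1-15 and wild type (positive where GFP-TIE1-15 is higher) against the mean log2(signal + 50) of both arrays, for all 11308 measured probe sets (grey) and the members (red, open where below the brightness minimum), with the 2-fold rule as dotted lines. AT4G15680 at 1.87 and AT2G47880 at -1.34 lie outside the dotted lines, and AT4G15700 at 1.00 lies on the upper one.

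Around the cluster, the ratios were near 0 at the nearest gene on either side. AT4G15650, next to AT4G15660, had signals of 2.4 in GFP-TIE1-15 and 1.1 in wild type (0.04), and AT4G15710, next to AT4G15700, had 2.2 in GFP-TIE1-15 and 3.1 in wild type (-0.02). Both were far below the brightness minimum, so their ratios say little. One gene further out, AT4G15640 was measured, with 480.9 in GFP-TIE1-15 and 242.8 in wild type, a log2 ratio of 0.86 that lies within the range of the cluster genes. The other named neighbours, AT4G15590 at 0.01, AT4G15730 at 0.20 and AT4G15740 at 0.20, were also below the minimum. How far the higher signals extend beyond the cluster can thus not be read from these probe sets.

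**Figure D3:**
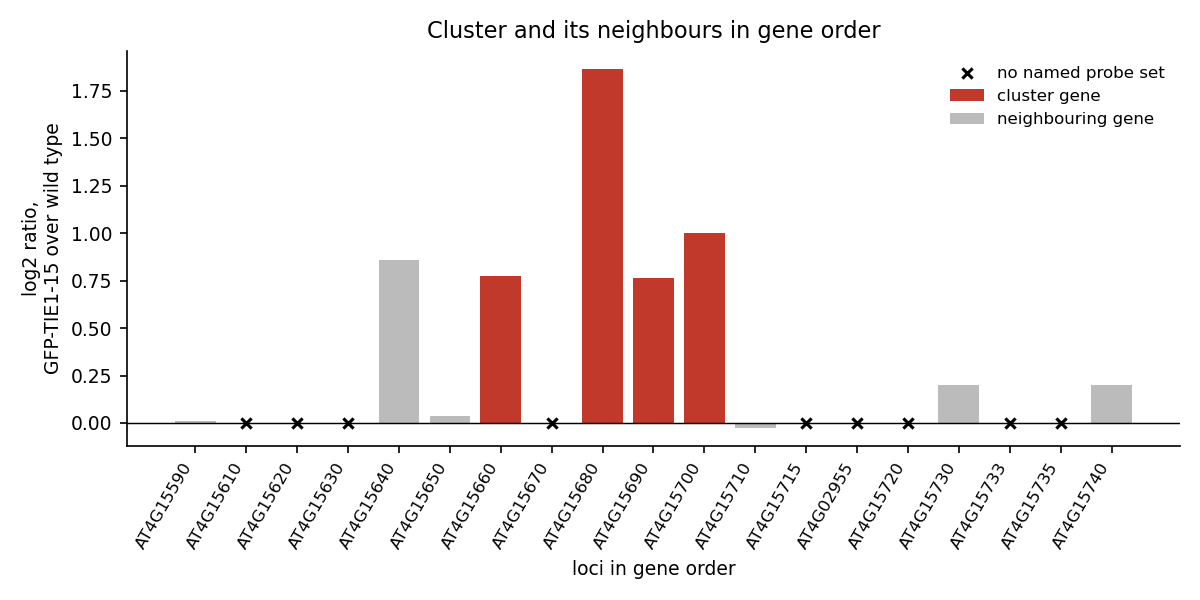
Log2 ratio, positive where GFP-TIE1-15 is above wild type, for the loci around the cluster on chromosome 4, in gene order and not to scale in distance, with cluster genes in red, neighbours in grey and a cross where a locus has no named probe set. The 4 cluster bars run from 0.76 to 1.87, and of the neighbours AT4G15640, the only measured one, reaches 0.86. The other neighbours with a bar lie between -0.02 and 0.20. They were below the brightness minimum, where the pseudocount shrinks a ratio most, so their short bars say little.

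Among the dispersed members, AT2G47880 stood furthest from wild type. Its protein is known as a shoot-derived signal that travels to the root and raises nitrate uptake when nitrogen is short. It had a signal of 194.9 in GFP-TIE1-15 and 570.1 in wild type, a log2 ratio of -1.34, and was thus at least 2-fold lower in the transgenic line. This ratio was the 135th lowest of the 11308 measured probe sets, and 6 of the 500 nearest in signal were lower. It stayed between -1.54 and -1.12 under all scalings and pseudocounts tried.

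AT5G18600 was the one member above the minimum on both arrays. It had a signal of 3330.5 in GFP-TIE1-15 and 2855.7 in wild type, a log2 ratio of 0.22, with 106 of the 500 nearest probe sets higher. AT1G03020 had 178.5 in GFP-TIE1-15 and 240.6 in wild type, a log2 ratio of -0.35, with 73 of the 500 nearest lower. The robust SD of the log2 ratio over all measured probe sets was 0.328, a spread among genes and not among plants. The ratio of AT5G18600 lies inside it and that of AT1G03020 just outside. Against the 500 probe sets nearest in signal, with a spread of 0.353, the ratio of AT1G03020 also lies inside.

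GRX480 (AT1G28480), known as a salicylate-induced partner of TGA factors that dampens jasmonate-responsive defence genes, lay below the minimum on both arrays. Its signal was 37.1 in GFP-TIE1-15 and 69.1 in wild type, a log2 ratio of -0.45. PDF1.2 (AT5G44420), a plant defensin gene known to be repressed when GRX480 is overexpressed, was below the minimum as well, with 61.0 in GFP-TIE1-15 and 144.4 in wild type (-0.81). Its relative PDF1.2b had 71.9 in GFP-TIE1-15 and 196.6 in wild type (-1.02), from a dim probe set of a kind that can detect several genes. These were the 2 genes with a named probe set among 5 listed for jasmonate and ethylene defence. AT3G62950 had 58.1 in GFP-TIE1-15 and 76.6 in wild type, a log2 ratio of -0.23, and 141 of the 500 nearest probe sets were lower.

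AT3G62950 sits in a second tandem group. It is followed directly by AT3G62960, and AT3G62930 lies upstream with 1 protein-coding gene between. All 3 are CC-type genes and all 3 were below the minimum, with AT3G62960 at 63.9 in GFP-TIE1-15 and 140.3 in wild type (-0.74) and AT3G62930 at 49.7 in GFP-TIE1-15 and 65.1 in wild type (-0.21). The chromosome 3 group thus had ratios of -0.74 to -0.21, against 0.76 to 1.87 in the chromosome 4 cluster, a gap for which there is no replicate check. The chromosome 4 cluster was picked with its values known, so the gap is a description only. The ratios of AT3G62950 and AT3G62930 lay within the spread of the 500 probe sets nearest in signal, 0.41 and 0.37. AT2G47870, the direct neighbour of AT2G47880, had no named probe set.

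Beyond the 10 members, 11 further CC-type genes were listed, of which 8 could be named on the array and 3 of those were measured. None of the 3 was at least 2-fold apart. AT1G06830, whose product is known to act as a shoot-to-root nitrogen signal together with that of AT2G47880, had 1090.3 in GFP-TIE1-15 and 814.7 in wild type, a log2 ratio of 0.40. Of the 500 probe sets nearest to AT1G06830 in signal, 58 had a higher ratio. AT2G47880, at -1.34, was picked with its value known, so the opposite sign within this pair is a description only. AT2G30540 had 230.9 in GFP-TIE1-15 and 505.1 in wild type, a log2 ratio of -0.98 just outside the 2-fold rule, and it was at -1.01 after division by the array median. AT4G33040 had 204.8 in GFP-TIE1-15 and 268.3 in wild type (-0.32).

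The flower regulator ROXY1 (AT3G02000), known for petal initiation, was below the minimum at 106.4 in GFP-TIE1-15 and 13.9 in wild type. Its log2 ratio of 1.29 moved to 2.85 at a pseudocount of 1 and to 0.74 at 25% of the trimmed mean. ROXY2 (AT5G14070), which acts with ROXY1 in anthers, had 47.2 in GFP-TIE1-15 and 60.3 in wild type (-0.18), and AT5G11930 had 71.7 in GFP-TIE1-15 and 55.0 in wild type (0.21). Over all 17 CC-type genes with a named probe set, 8 had a ratio above 0 and 9 below, and the median was -0.18. Over the 8 measured ones the median was -0.05. On the whole array, 49.5% of probe sets other than controls had a ratio above 0 and 50.1% a ratio below 0. The 17 include the 4 cluster genes and the dispersed members, all picked with their values known, so nothing is read from these counts and medians.

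**Figure D4:**
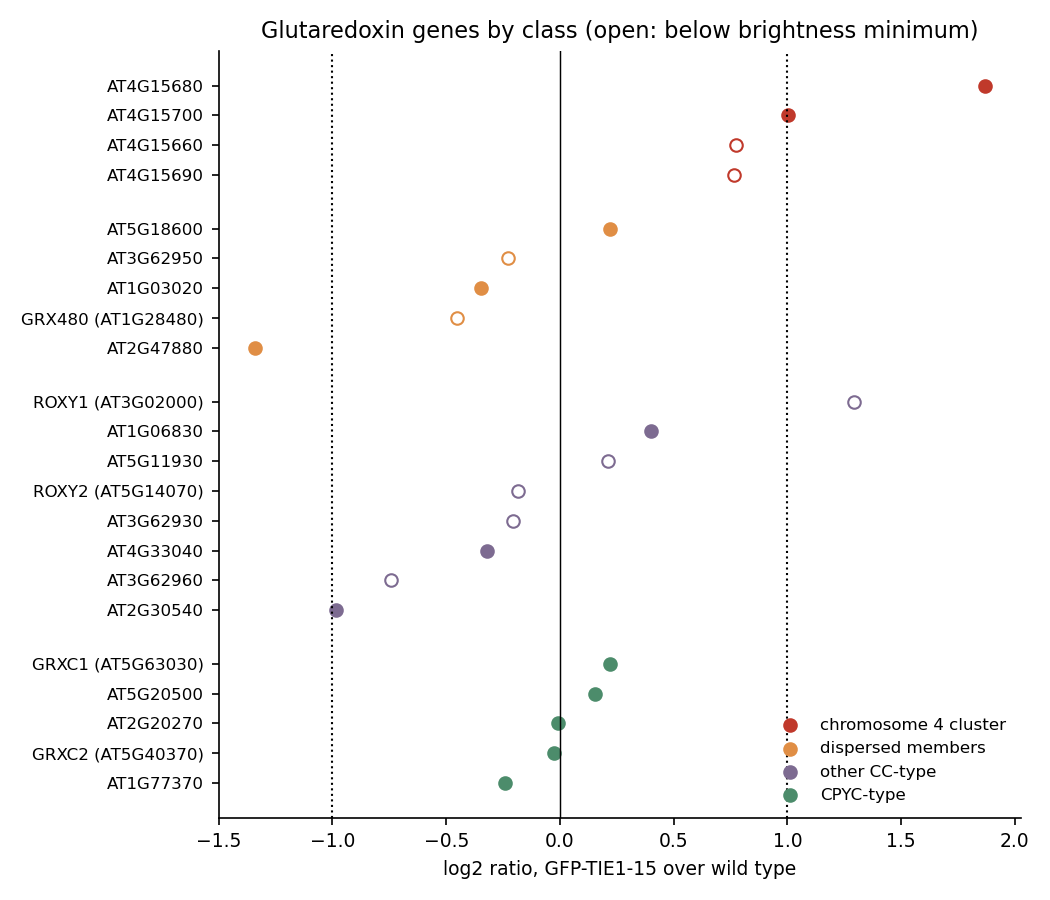
Log2 ratio, positive where GFP-TIE1-15 is above wild type, for each glutaredoxin gene with a named probe set, grouped as chromosome 4 cluster, dispersed members, other CC-type genes and CPYC-type genes, 1 point a gene and open where below the brightness minimum. CC-type genes spread from -1.34 to 1.87, and the 5 CPYC-type genes lie between -0.24 and 0.22. Both ends of the CC-type spread are members picked with these values known.

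The CPYC-type glutaredoxins, a class shared with other organisms and used in general thiol reduction, had ratios near 0. Of 6 listed, 5 could be named, all 5 reached the minimum, and none was at least 2-fold apart. GRXC1 (AT5G63030) had 782.3 in GFP-TIE1-15 and 664.1 in wild type (0.22), and GRXC2 (AT5G40370) had 9045.5 in GFP-TIE1-15 and 9205.8 in wild type (-0.03). AT5G20500 was at 0.15, AT2G20270 at -0.01 and AT1G77370 at -0.24. Their range was -0.24 to 0.22 over 5 genes, beside -1.34 to 1.87 over the 17 CC-type genes. Both ends of the CC-type range, AT2G47880 and AT4G15680, are members picked with these values known, so nothing is read from its width. All 5 CPYC-type genes were measured, while 9 of the 17 CC-type genes were dim. The difference in range was not tested.

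Few of the genes known to act with CC-type glutaredoxins could be read under the annotation used. It gives no symbol for 8730 probe sets other than controls, and whether some of these match the genes below was not checked. No gene had a named probe set among 10 TGA factors, 5 TOPLESS corepressors, 4 CGFS-type glutaredoxins, 10 cytosolic thioredoxins and their reductases, and 7 salicylate response genes. In glutathione metabolism, the reductases GR1 (AT3G24170) and GR (AT3G54660), which regenerate reduced glutathione, were the only measured genes of 4, at 0.44 and -0.09. GR1 had 1218.5 in GFP-TIE1-15 and 887.1 in wild type. Of 15 nitrate response genes only AT1G68670, a transcription factor of nitrate signalling, had a named probe set, with 963.2 in GFP-TIE1-15 and 955.2 in wild type (0.01).

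Of 13 cytokinin response genes, 2 had a named probe set. RR16 (AT2G40670), a type-A response regulator, had 397.3 in GFP-TIE1-15 and 109.2 in wild type, a log2 ratio of 1.49 between those of AT4G15680 and AT4G15700. ARR15 (AT1G74890), of the same class, was below the minimum at 37.1 in GFP-TIE1-15 and 13.3 in wild type (0.46). With 2 genes read, nothing can be said of the cytokinin response at large.

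**Figure D5:**
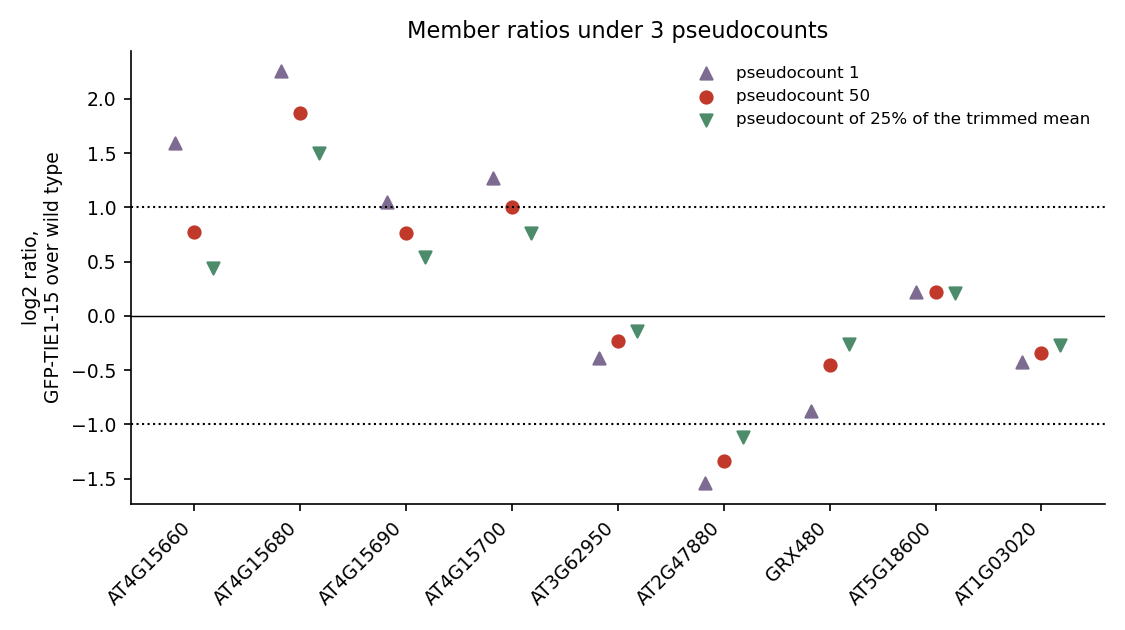
Log2 ratio, positive where GFP-TIE1-15 is above wild type, for the 9 members under pseudocounts of 1, 50.0 and 25% of the trimmed mean, as 3 marks a gene, with the 2-fold rule as dotted lines. AT4G15680 and AT2G47880 stay outside the dotted lines at all 3, and AT4G15700, AT4G15690 and AT4G15660 cross the upper line.

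Among the members, only the ratios of AT4G15700, AT4G15690 and AT4G15660 changed side of the 2-fold line with the pseudocount. At a pseudocount of 1, the ratios were 2.25 for AT4G15680, 1.27 for AT4G15700 and -0.88 for GRX480. At 25% of the trimmed mean the same genes stood at 1.50, 0.76 and -0.26, so AT4G15680 stayed past the line and GRX480 short of it.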

How the data were processed

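Aerial parts of GFP-TIE1-15 and wild-type seedlings were each measured on 1 array. The deposited values are probe set intensity values on a linear scale for 22810 probe sets, made with GCOS 1.0 and MAS5, per the submitters' processing notes. No scaling target or detection call is used, as none is given in the sources used here, and the intensities went into the ratios as deposited.

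Probe sets were named through the platform annotation and the TAIR10.1 RefSeq gene table, used for names and gene order only. Of the probe sets, 13513 had 1 gene symbol (13436 matched a locus), 503 had more than 1 symbol and stay unnamed, and the annotation used gives no symbol for 8730 others that are not controls, whether or not these match a gene. No sequences were used.

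The pseudocount is 10% and the brightness minimum 40% of the mean after 2% of values were removed at each end. The spread used to compare settings is the scaled median absolute deviation over 500 probe sets of similar mean signal for a gene, and over all measured probe sets for a median. The number of arrays limits the precision.

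The members and the gene lists were chosen with earlier results of these data known. The rule for named genes took every CC-type gene with a named probe set, the 3 nearest named loci on each side of the cluster, and up to 4 measured genes in each companion list. Genes named that were below the minimum in companion lists, marker genes, and AT2G20270, a measured CPYC-type gene beyond the 4 of its list, were added after their values were seen. Alternatives were quantile normalization, division by the array median, removal of a loess trend, a smaller pseudocount (1) and a larger one (25% of the trimmed mean), a minimum of 0% or 100% of the trimmed mean, and leaving out probe sets with a name ending in _s_at or _x_at, which can detect several genes. Python 3.11.15, numpy 2.4.6, pandas 2.3.3, statsmodels 0.14.6 and matplotlib 3.10.9 were used.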

Additional observations from a re-analysis of the deposited data

How the results depend on the processing

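With 1 array for each genotype no setting carries a test. Of 2 members at least 2-fold higher, 1 was left after quantile normalization, division by the array median, removal of the loess trend, the larger pseudocount (25% of the trimmed mean) and the stricter minimum (100% of it). AT4G15700 is the gene that dropped out, and AT4G15680 passed the rule under all of these. The 1 member at least 2-fold lower, AT2G47880, passed the rule in every setting. The cluster median of 0.89 was 1.43 with a pseudocount of 1, and 1.87 at the minimum of 100%, where only AT4G15680 is left. It was 0.65 with a pseudocount of 25%. Over all measured probe sets, the 136 higher became 209 under the pseudocount of 1, 75 under that of 25% and 83 at the stricter minimum, which also left 178 of the 270 lower. The last comes from fewer probe sets, 6938. The ratio of a single member cannot move with the minimum or with the removal of shared probe sets, since each member had 1 probe set and none was of the shared kind. Of the 45 member values under other scalings and pseudocounts, 41 moved by less than the local spread and 4 by more, all 4 with another pseudocount. A pseudocount cannot change the sign of a ratio. Over all measured probe sets the median lay between -0.017 and 0.013 under each scaling. No paired analysis was possible because there was only 1 array a genotype. Signal over background limits the dim members.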

Other observations

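The cluster on chromosome 4 was set beside other stretches of neighbouring genes, as a description with no test. Because the cluster was chosen with these values known, its place among them restates that choice and is no support for it. There were 3981 overlapping windows of 5 adjacent protein-coding genes in which at least 4 genes had a named probe set, dim ones included. The window from AT4G15660 to AT4G15700 had a median log2 ratio of 0.89, and the highest median of a window that shares no gene with it was 0.73. With a pseudocount of 1, where dim genes spread more, the cluster had 1.43 and ranked 8 by its median. Every named gene had a ratio above 0 in 5.68% of windows, a share that was 2.54% after removal of the loess trend, 4.80% after division by the array median and 6.36% after quantile normalization. Genes of a tandem cluster may share probe signal, which was not tested.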
